A study of Arabidopsis thaliana with 6 samples.

Results

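ATG8 genes encode small ubiquitin-like proteins of autophagy, the process that carries cytoplasm to the vacuole for breakdown. They were taken here as the probe sets, groups of short probes read together for one transcript, whose platform annotation names a single gene with a symbol beginning ATG8. That gave 7 probe sets for 7 genes (ATG8B, ATG8C, ATG8D, ATG8E, ATG8F, ATG8G and ATG8H), 1 probe set each, of 22746 probe sets and 13355 named genes in the data. All 7 carry the plain suffix given to probe sets designed against one transcript, which matters in a family of close copies. The annotation lists another 2 genes under the older symbols APG8A and APG8H, and the reference gene table gives ATG8A and ATG8I as synonyms of them. They are called ATG8A and ATG8I here, and their values are given apart from those of the 7. With them all 9 ATG8 genes of the family were measured.

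Signals came from 6 oligonucleotide arrays hybridised with biotin-labelled RNA of whole Arabidopsis thaliana Col-0 seedlings at growth stage 1.02, with a single array for each of 6 titles (glc, OMG, DOG, man, wat and zer). Every group was grown alike per the labels, in continuous light at 23 °C on medium with 0.8% agar after 72 h of stratification at 4 °C, and the treatment field reads "none" for all 6, so the groups rest on the array titles alone. The series title names glucose analogs that plants do not metabolise. On that basis glc is read as glucose, and OMG and DOG, from knowledge of a related publication, as a methylated and a deoxy form of glucose; the labels spell out none of these, give no dose and no duration, and leave wat, zer and man unexplained.

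A new ATG8 protein is trimmed at its end by the protease ATG4, activated by ATG7 and joined by ATG3 to a membrane lipid, phosphatidylethanolamine. The lipid-bound form covers the growing autophagosome, where it helps the membrane close and holds cargo receptors such as NBR1. ATG8H and ATG8I differ from the other members in ending at or close to the glycine that is joined to the lipid. In plants, autophagy is known to increase when carbon is short, with the kinase SnRK1 promoting it and the kinase TOR holding it back, and transcripts of several ATG8 genes are known to accumulate in sugar-starved cells.

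With 1 array in each group no spread between replicates exists, so no test was possible and every difference is a description of these arrays. The deposited signals had been scaled to one mean per array, so levels are relative to the total of the array, and in whole seedlings a lower level may be fewer cells of a type or less RNA per cell. Differences are on the log2 scale after raising signals under the 40th percentile of an array to that percentile; no ATG8 signal was that low. Signals of all 7 genes were at or above the array median on all 6 arrays. Levels are compared within a gene only, since the probes of different genes differ in brightness.

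ATG8E and ATG8F varied the most over the arrays, and both were lowest in glc. ATG8E read 292.8 in glc, 347.1 in zer, 469.7 in wat, 533.9 in OMG, 540.1 in DOG and 582.0 in man. ATG8F read 596.6 in glc, 927.7 in zer, 994.0 in wat, 1017.7 in OMG, 1050.3 in DOG and 1128.5 in man. The order of the 6 arrays was thus the same for both genes, but zer sat near glc for ATG8E and near wat for ATG8F. From lowest to highest array the signal differed 1.99-fold for ATG8E and 1.89-fold for ATG8F.

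**Figure D1:**
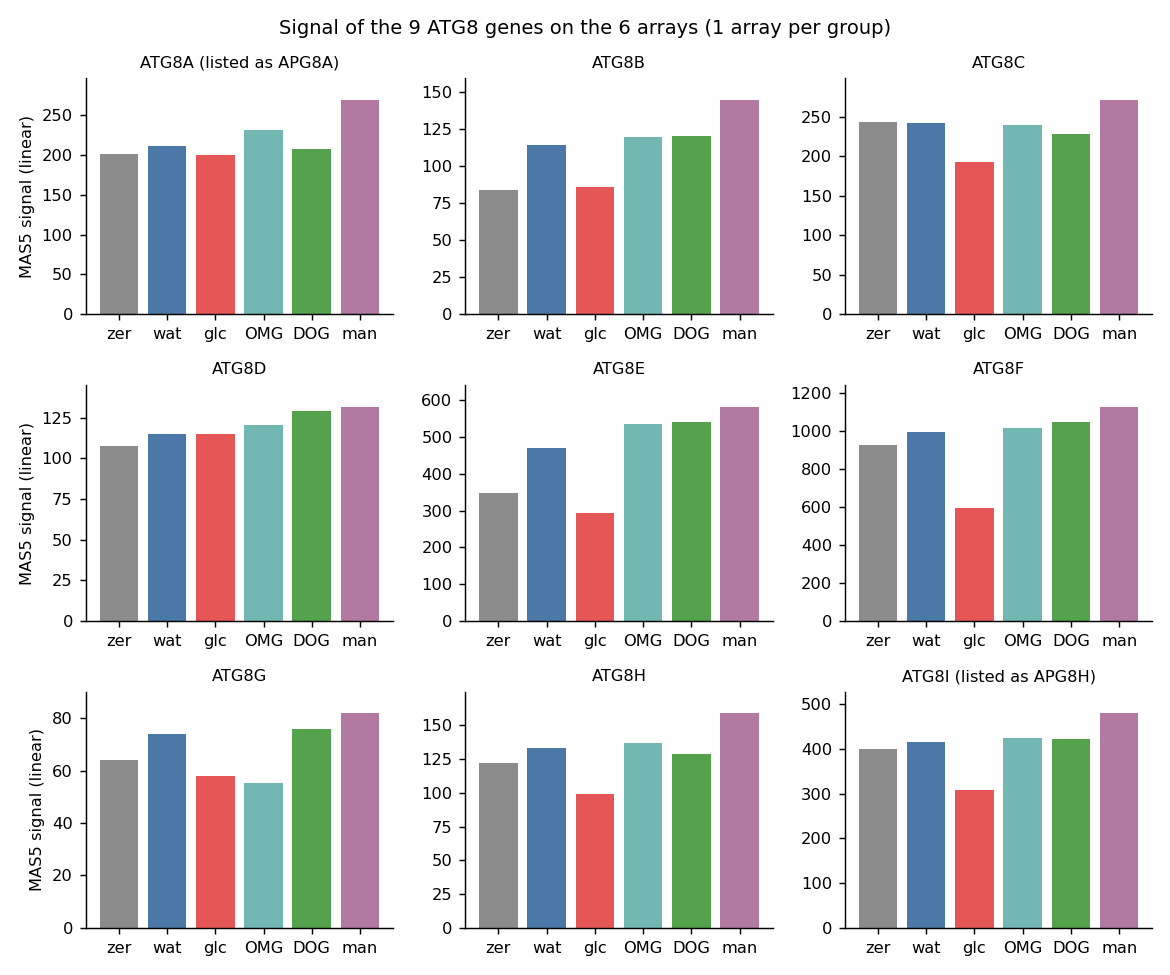
Bars give the linear MAS5 signal of each of the 9 ATG8 genes on each array, with 1 array per group, no error bars and a separate axis starting at 0 for each gene. The man bar is the tallest in all 9 panels, and the glc bars of ATG8E (292.8) and ATG8F (596.6) stand furthest below the others.

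ATG8B, ATG8H and ATG8C also had low signals in glc. ATG8B read 84.0 in zer, 85.8 in glc, 114.0 in wat, 119.5 in OMG, 120.0 in DOG and 144.4 in man. Both zer and glc were low for this gene, and zer was slightly the lower. ATG8H read 99.0 in glc, 121.9 in zer, 128.7 in DOG, 132.8 in wat, 137.0 in OMG and 158.6 in man. ATG8C read 192.9 in glc, 228.2 in DOG, 238.9 in OMG, 241.8 in wat, 242.9 in zer and 271.2 in man. For ATG8C and ATG8H the 4 arrays zer, wat, OMG and DOG lay close together, with glc below and man above them.

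ATG8D and ATG8G did not share the low glc signal in the same way. ATG8D read 107.8 in zer, 114.8 in wat, 115.2 in glc, 120.4 in OMG, 129.2 in DOG and 131.7 in man, a 1.22-fold range and the narrowest of the 7 genes. Its glc and wat signals were almost equal. ATG8G, whose signals lay closest to the array medians, read 55.3 in OMG, 57.8 in glc, 64.1 in zer, 73.8 in wat, 75.9 in DOG and 81.8 in man. Here OMG was the lowest array, which was the case for no other ATG8 gene.

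The 2 genes listed under older symbols lay within the range of the others. ATG8A read 199.1 in glc, 200.7 in zer, 207.0 in DOG, 211.4 in wat, 231.5 in OMG and 268.8 in man. ATG8I read 309.0 in glc, 398.8 in zer, 415.4 in wat, 421.7 in DOG, 424.7 in OMG and 479.2 in man. ATG8I thus followed ATG8F and ATG8H, with glc alone at the low end, whereas ATG8A had only man apart from the rest.

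The glc array was set against the wat array, a title the labels leave unexplained, to ask which ATG8 transcripts differ between them. Of the 7 genes, ATG8F was 1.67-fold lower in glc (log2 difference -0.74) and ATG8E 1.60-fold lower (-0.68). These 2 were the members at least 1.5-fold lower, beside 6.44% of all 12042 probe sets compared. Only 3.58% of probe sets had a lower difference than ATG8F and 4.47% a lower one than ATG8E. Then came ATG8H (-0.42), ATG8B (-0.41), ATG8G (-0.35) and ATG8C (-0.33), between 1.25-fold and 1.34-fold lower, and ATG8D did not differ visibly (0.01). In all 6 of 7 were lower in glc than in wat, where 47.5% of all probe sets were. The median over the 7 genes was -0.41, beside 0.02 over all probe sets compared. ATG8I was 1.34-fold lower (-0.43) and ATG8A 1.06-fold lower (-0.09).

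The arrays of the glucose analogs gave ATG8 signals near those of wat. No member was 1.5-fold from wat in OMG, where 3.2% of probe sets were, or in DOG, where 2.95% were. Median differences of the 7 genes from wat were 0.04 in OMG and 0.07 in DOG. ATG8E was 1.14-fold higher in OMG and 1.15-fold higher in DOG than in wat, and ATG8F 1.02-fold and 1.06-fold. The exception was ATG8G, which was 1.33-fold lower in OMG than in wat (-0.42) but 1.03-fold higher in DOG. These comparisons and that of glc share the wat array, so a stray reading in wat enters all of them.

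Compared directly, OMG and DOG differed little for 6 of the 7 genes, from 1.00-fold (ATG8B) to 1.07-fold (ATG8D). ATG8G differed 1.37-fold, being lower in OMG (-0.46), and 2.84% of probe sets had a lower difference. No member reached 1.5-fold between the analog arrays, where 2.1% of probe sets did. An interval cannot be set on these differences without replicates, so the small values do not show that the 2 compounds act alike, and the doses are not given.

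Glucose set against each analog avoids the wat array. Every comparison of glc uses the same single glc array, however, so a stray reading in glc enters all of them. For ATG8E the glc signal was 1.82-fold below OMG (-0.87) and 1.84-fold below DOG (-0.88). For ATG8F it was 1.71-fold below OMG (-0.77) and 1.76-fold below DOG (-0.82). These 2 genes were the members at least 1.5-fold lower, beside 6.27% of probe sets against OMG and 6.63% against DOG. Against DOG the other members ran from -0.17 (ATG8D) to -0.48 (ATG8B), and against OMG from 0.06 (ATG8G, whose OMG signal was low) to -0.48 (ATG8B). Medians were -0.47 against OMG and -0.39 against DOG, beside 0.03 and 0.02 over all probe sets.

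**Figure D2:**
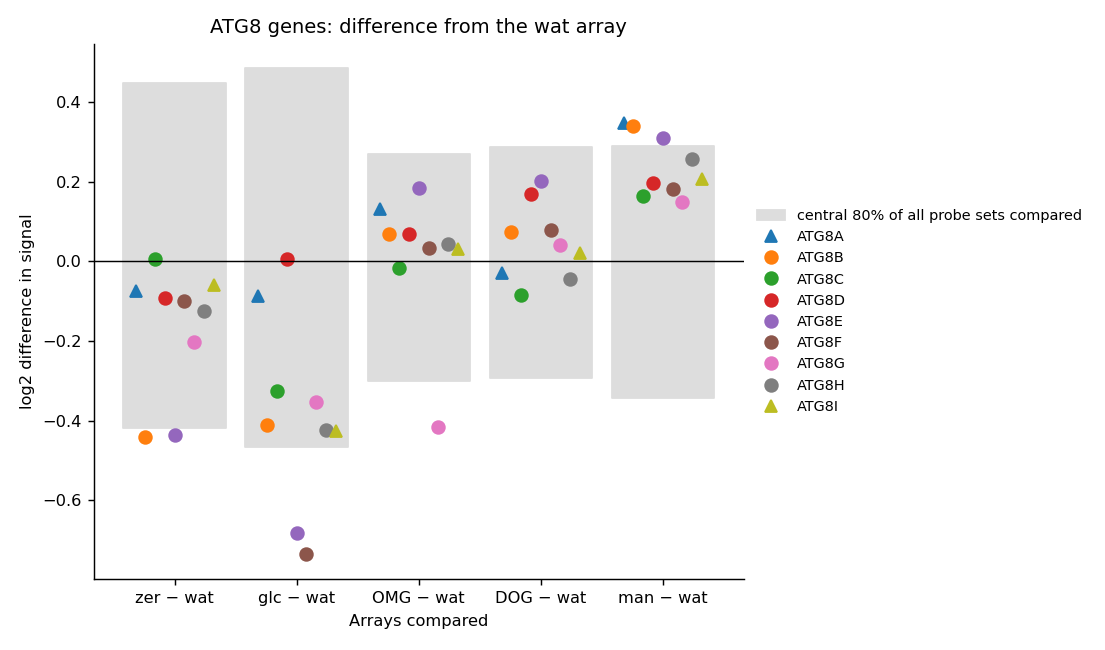
Each point is the log2 difference in signal of 1 ATG8 gene between an array and the wat array (circles for the 7 genes with an ATG8 symbol, triangles for ATG8A and ATG8I), and the grey boxes span the central 80% of all probe sets compared. In glc, ATG8E (-0.68) and ATG8F (-0.74) lie below the box, as do ATG8B and ATG8E in zer and ATG8G in OMG. In man all 9 points lie above 0, between 0.15 and 0.35, but only ATG8A, ATG8B and ATG8E lie above the box.

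The arrays wat, OMG and DOG lay within 1.05-fold to 1.15-fold of each other for 6 of the 7 genes and within 1.37-fold for ATG8G. They are different treatments and not replicates, but they give a scale for the order of the arrays within a gene. The glc signal lay under the lowest of the 3 by 1.67-fold for ATG8F, 1.60-fold for ATG8E, 1.33-fold for ATG8B, 1.30-fold for ATG8H and 1.18-fold for ATG8C. That is 5 of 7 genes below each of wat, OMG and DOG, beside 32.6% of all 12723 probe sets read. In 4 of 7 genes (ATG8C, ATG8E, ATG8F and ATG8H) glc was the lowest of all 6 arrays, beside 23% of probe sets. Among wat, OMG and DOG themselves the order changed from gene to gene and cannot be resolved.

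The man array gave the highest signal for all 7 ATG8 genes, and for ATG8A and ATG8I too. Man was the highest array for 17.1% of all probe sets. Each difference was small: against wat, ATG8B was 1.27-fold higher (0.34), ATG8E 1.24-fold (0.31), ATG8H 1.19-fold (0.26), ATG8D 1.15-fold (0.20), ATG8F 1.14-fold (0.18), ATG8C 1.12-fold (0.17) and ATG8G 1.11-fold (0.15). So 7 of 7 were higher in man than in wat, where 47.4% of probe sets were, and none was 1.5-fold higher, where 1.68% were. The median was 0.20, beside -0.02 over all probe sets compared. Above the highest of wat, OMG and DOG, the man signal lay by 1.20-fold for ATG8B, 1.16-fold for ATG8H and 1.12-fold for ATG8C, but by only 1.02-fold for ATG8D. ATG8A was 1.27-fold and ATG8I 1.15-fold higher in man than in wat.

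Of the comparisons made, glc against man had the largest median difference over the 7 genes. It also had the largest spread over all probe sets (SD of log2 differences 0.49). Man lay further from zer than from glc for ATG8B (1.72-fold) and ATG8D (1.22-fold), and further from OMG for ATG8G (1.48-fold). ATG8E was 1.99-fold lower in glc than in man (-0.99), ATG8F 1.89-fold (-0.92), ATG8B 1.68-fold (-0.75) and ATG8H 1.60-fold (-0.68). These 4 of 7 were at least 1.5-fold lower, as were 8.48% of the 12081 probe sets compared. The other 3 were 1.42-fold (ATG8G), 1.41-fold (ATG8C) and 1.14-fold (ATG8D) lower. ATG8I was 1.55-fold and ATG8A 1.35-fold lower. The median of the 7 was -0.68, beside 0.06 over all probe sets.

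In zer the members ran from -0.44 to 0.01 against wat. The same range was -0.74 to 0.01 in glc, -0.42 to 0.18 in OMG, -0.08 to 0.20 in DOG and 0.15 to 0.34 in man. ATG8B was 1.36-fold lower than in wat (-0.44) and ATG8E 1.35-fold lower (-0.44), with 9.19% and 9.33% of probe sets lower still. The others lay between -0.20 (ATG8G) and 0.01 (ATG8C), with ATG8F at -0.10. In all 6 of 7 were lower in zer than in wat, where 48.1% of probe sets were, and none was 1.5-fold lower, where 5.13% were. The zer signal was below each of wat, OMG and DOG for 5 of the 7 genes (30.5% of probe sets), by 1.36-fold for ATG8B and 1.35-fold for ATG8E, but by 1.06-fold or 1.07-fold for ATG8D, ATG8F and ATG8H. Set against glc, zer was 1.55-fold higher for ATG8F, 1.26-fold for ATG8C, 1.23-fold for ATG8H, 1.19-fold for ATG8E and 1.11-fold for ATG8G. It was lower than glc for ATG8B (84.0 and 85.8) and ATG8D (107.8 and 115.2).

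Completeness of the labelled RNA differed between the arrays in an order that resembles part of this pattern. The 3′ over 5′ signal of a control is higher when the 5′ part of transcripts is poorly labelled. For the first of 2 actin control pairs it was 7.48 in zer and 6.41 in glc. On the others it was 3.46 (DOG), 4.03 (OMG), 4.55 (man) and 4.66 (wat). The second actin pair differed less, at 1.86 in zer, 1.76 in glc, 1.72 in man and 1.55 to 1.62 on the others. It thus set glc little apart from man. The 2 arrays with the highest ratios were the 2 lowest for ATG8A, ATG8B, ATG8E, ATG8F, ATG8H and ATG8I, but not for ATG8C, ATG8D and ATG8G. The share of all probe sets with these 2 arrays lowest was not computed. Taken singly, glc lay below each of wat, OMG and DOG for 32.6% of probe sets and zer for 30.5%. The first actin ratio was higher in zer than in glc. ATG8F read 927.7 in zer and 596.6 in glc, and ATG8C, ATG8E, ATG8G and ATG8H were also higher in zer. ATG8B (84.0 and 85.8) and ATG8D (107.8 and 115.2) were lower in zer. The ubiquitin control ratio ran in the same way as that of the first actin pair, at 2.84 in zer, 2.73 in glc and 2.24 to 2.48 on the others. The GAPDH ratio did not set glc apart, at 1.38 in zer, 1.26 in glc and 1.21 to 1.35 on the others. The part of RNA completeness in the ATG8 differences was not tested.

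**Figure D3:**
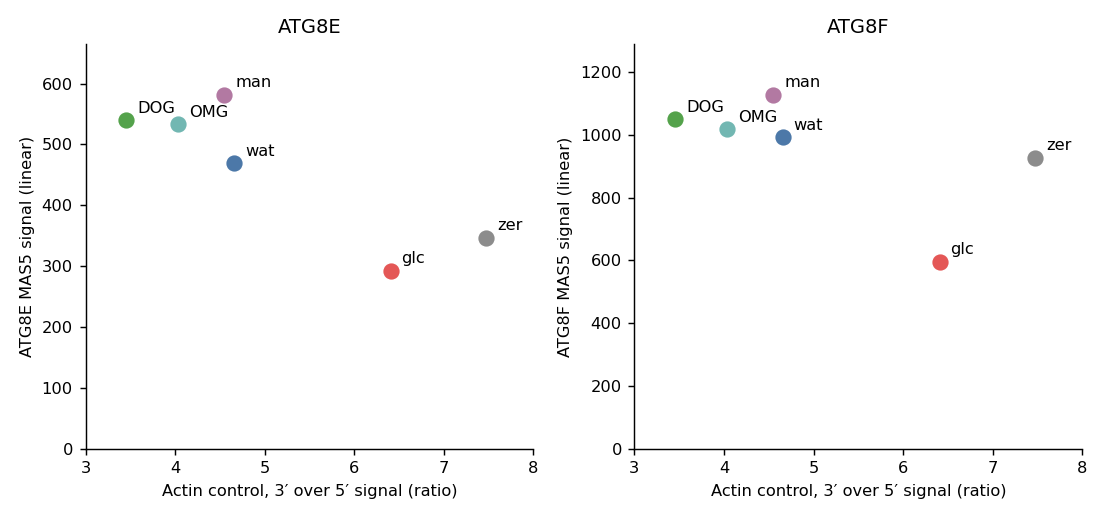
Each point is 1 array. The horizontal axis gives the 3′ over 5′ signal ratio of the first actin control pair. The vertical axis gives the linear MAS5 signal of ATG8E (left) or ATG8F (right). The arrays zer (7.48) and glc (6.41) stand to the right; both are low for ATG8E, and only glc is low for ATG8F.

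Markers of leaf and root were read beside the ATG8 genes. The summed signal of the 2 leaf markers with a probe set of their own, of 4 listed (RCA, Rubisco activase, and LHCB4.2, a light-harvesting protein), ran from 4562.1 in wat to 5565.9 in zer. The 3 root markers (the beta-glucosidase gene PYK10 and the root hair expansin genes EXPA7 and EXPA18) summed to 2715.9 in man at the lowest and 3392.7 in zer at the highest. The sums thus stayed within 1.22-fold and 1.25-fold, but RCA and PYK10 make up most of them. Among the other markers, LHCB4.2 ranged 1.51-fold and was lowest in glc (1489.7), EXPA7 ranged 1.62-fold from 28.4 in OMG to 46.0 in glc, and EXPA18 ranged 1.30-fold and was also highest in glc (44.9). The part of tissue make-up in the ATG8 differences was not tested.

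Over the 6 arrays the members' log2 signals correlated positively in all 21 pairs, with Pearson's r from 0.34 (ATG8C and ATG8D) to 0.95 (ATG8B and ATG8E) and a median of 0.72. These values share the same 6 arrays and their scaling. The share of positive pairs among all probe sets was not computed, so the count does not set the family apart. ATG8C and ATG8H (0.94) and ATG8F and ATG8H (0.93) were also close, and ATG8F correlated with ATG8I at 0.98. ATG8G had no r above 0.61 with another member.

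Genes with profiles most like each member were sought among named genes above the array median on all arrays, by Pearson's r of log2 signal over the 6 arrays. For ATG8E the closest were AT4G20860, AT2G30600, AT2G31810, UGT73B1, a glucosyltransferase gene, and AT1G66180, with r of 0.995 to 0.997. Among them AT1G66180 had the widest range, 523.1 in glc and 1586.3 in man. For ATG8F they were AT2G20740, AT4G09830, AT2G46220, ACLA-3, which encodes a subunit of ATP-citrate lyase, the enzyme that makes acetyl-CoA in the cytosol, and BZIP53, a leucine zipper transcription factor gene, with r of 0.991 to 0.997. ACLA-3 read 318.0 in glc and between 484.5 (zer) and 591.3 (man) elsewhere. BZIP53 read 343.1 in glc and between 433.4 (zer) and 517.2 (man) elsewhere, so both shared with ATG8F a single low array.

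The other members had likeness lists of their own, and no gene was on the list of more than 1 member, as the 35 places held 35 genes. WLIM2b, an actin-binding LIM protein gene, was closest to ATG8H (r = 0.999), and XERICO, a gene for a RING finger protein linked to abscisic acid, was also on its list (0.991). SGA2, which encodes the histone chaperone ASF1A, was on that of ATG8D (0.978). With 6 points and so many candidates high values are easily reached. At an r of 0.95 or more stood 121 of 2299 candidates for ATG8E, 99 of 3271 for ATG8B, 80 of 2631 for ATG8F and 69 of 3775 for ATG8H, but 33 of 4636 for ATG8C, 17 of 5129 for ATG8D and 5 of 4355 for ATG8G.

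**Figure D4:**
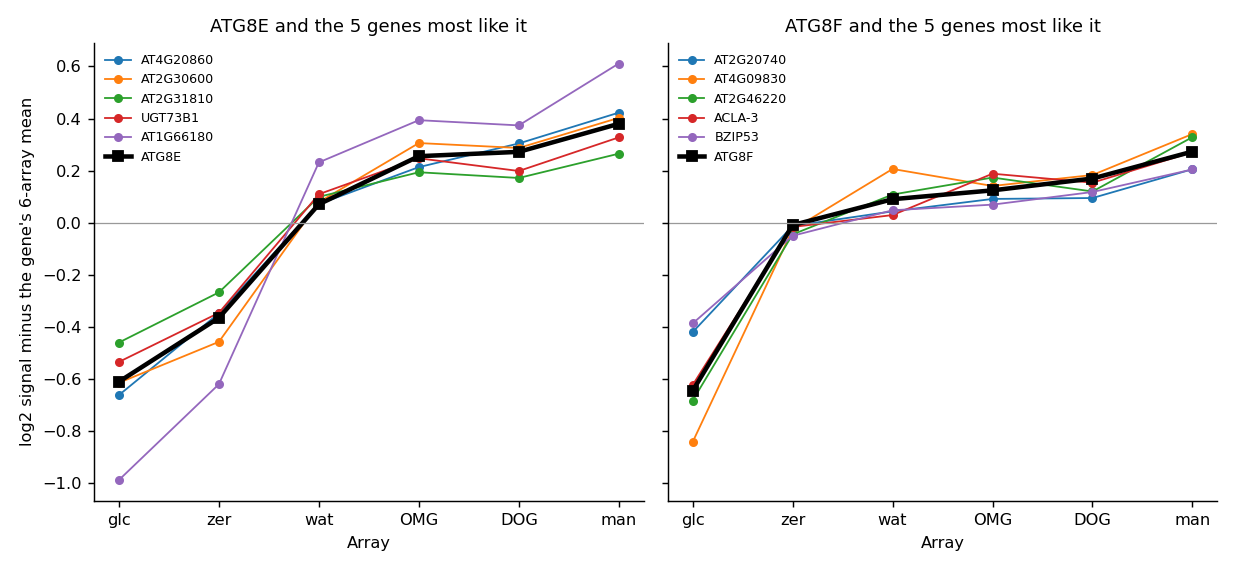
Log2 signal minus the mean over 6 arrays is shown for ATG8E (left) and ATG8F (right) as thick black lines, with the 5 genes most like each as thin coloured lines; the lines only join values of 1 gene across separate treatments. Both glc and zer are low in the left panel, and glc alone in the right one.

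Other genes of autophagy showed the low glc signal more weakly. A pathway list of 41 genes held 11 with a probe set named for them alone, and the other 30 were not analysed here. Of these 11, 1 (AT3G18770) was under the floor on every array. Among the other 10, 9 were lower and 1 higher in glc than in wat, where 47.5% of all probe sets were lower. At least 1.5-fold lower was 1 of the 10, near the general share of 6.44%. That gene, AT1G49180, read 28.2 in glc and 48.3 in wat, 1.71-fold lower, but at 37.5 it was low in man as well. Its glc signal was close to the floor of that array (27.2), and it reached the array median on only 2 of the 6 arrays. The median was -0.22 over the 11 and -0.24 over the 10, beside -0.41 for the ATG8 genes and 0.02 for all probe sets.

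ATG3 is the enzyme that passes ATG8 to its lipid. Its gene read 181.1 in glc, 190.9 in zer, 201.6 in DOG, 206.9 in OMG, 207.9 in wat and 222.0 in man. Its extremes were those of ATG8E and ATG8F, but it was only 1.15-fold lower in glc than in wat and 1.07-fold higher in man. ATG101 (AT5G66930), a partner of the kinase complex that starts autophagy, read 129.3 in zer, 131.9 in glc, 146.1 in DOG, 156.8 in wat, 167.2 in man and 181.3 in OMG. It was low in zer and glc, as ATG8B was, but its highest array was OMG.

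The remaining pathway genes have neither a symbol nor a synonym of autophagy in the reference gene table and are given by locus. AT3G59950 went another way than the ATG8 genes, at 61.0 in man, its lowest array, 68.9 in glc, 69.5 in zer, 71.3 in DOG, 72.3 in wat and 75.3 in OMG. Its glc and wat signals were 1.05-fold apart. Of the 10 pathway genes above the floor, 4 were highest in man and 6 lowest in glc, beside 17.1% and 23% of all probe sets. In man against wat 5 were higher and 5 lower, near the general share of 47.4% higher. AT1G77890 alone was at least 1.5-fold higher (56.1 and 31.2), as were 1.68% of all probe sets. For that gene wat was the lowest of all arrays and close to the floor of 28.6, and DOG was 1.65-fold higher than wat too. The median in man against wat was 0.03 over the 10 and -0.04 with the gene at the floor, whereas that of the ATG8 genes was 0.20.

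Regulators of autophagy were read for 2 of 6 listed genes. AKINBETA1, a SnRK1 subunit gene, read 206.1 in glc, 320.9 in zer, 523.4 in DOG, 541.1 in OMG, 569.3 in wat and 629.4 in man. It had the low glc and zer and the high man signal of ATG8E, over a wider range of 3.05-fold. RAPTOR1, a partner of the TOR kinase, stayed between 79.7 (glc) and 90.6 (zer).

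**Figure D5:**
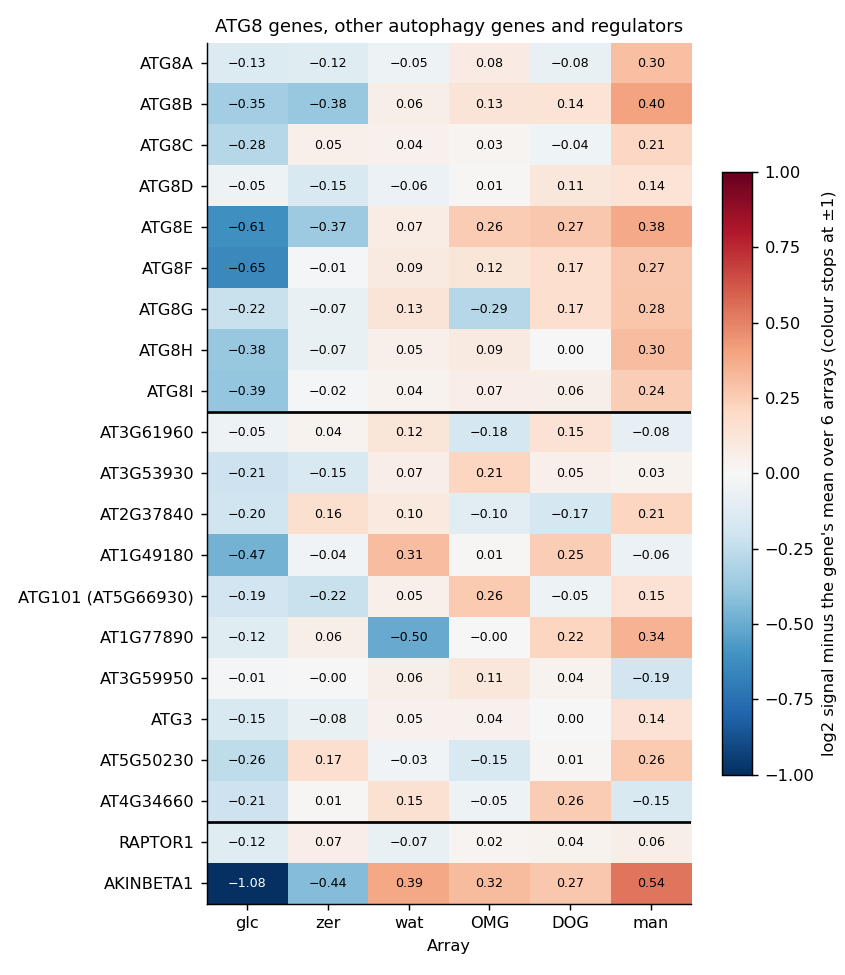
Rows are the 9 ATG8 genes (top block), the 10 other autophagy genes above the floor (middle) and 2 regulators (bottom), columns are the 6 arrays, and each cell gives the log2 signal minus the mean of that gene over the arrays. In the ATG8 block the man column is positive in all 9 rows, whereas it is mixed in the middle block. The glc column is negative in every row of all blocks, so its sign does not set the ATG8 genes apart.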

How the data were processed

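The authors deposited linear intensity signals, 1 per probe set, computed with MAS5 per the submitters' processing notes. Neither settings nor a version nor detection calls are given in the sources. The mean signal after trimming 2% at each end was 100.0 on every array, so the arrays had been scaled before deposit. The 64 control probe sets were used only for 3′ to 5′ ratios. A probe set was compared when it reached the array median (percentile 50) on either array; over all 6 arrays, on any. Names came from the platform annotation and a gene table of assembly TAIR10.1: 13513 probe sets named 1 gene, 13436 of them found in that table, 503 named several genes and 8730 none. The text names each ATG8 gene, measured genes of 2 autophagy lists and the 5 genes most like a member with at least its log2 range divided by 2. Members and lists were chosen with earlier results of these data known. The fold and ranking steps were tested on simulated data. Python 3.11.15, numpy 2.4.6 and pandas 2.3.3 were used. The number of arrays, 1 per group, limits the precision.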

Additional observations from a re-analysis of the deposited data

How the results depend on the processing

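No paired analysis was possible because each group holds 1 array. The alternatives were no floor, a floor at the 20th percentile, quantile normalization, equal medians, log2(signal + 16), the mean of a gene's probe sets (identical, since each ATG8 gene has 1), all 9 ATG8 genes, and the mean of the other arrays among wat, OMG, DOG and man as control. Over these, the ATG8 median ran from -0.49 to -0.35 in glc against wat, 0.18 to 0.26 in man, -0.19 to -0.10 in zer, 0.01 to 0.10 in DOG and -0.05 to 0.11 in OMG, so that its sign in OMG depends on the setting. Against OMG, DOG and man the glc median ran from -0.53 to -0.41, -0.41 to -0.33 and -0.74 to -0.60. None of these medians, or of the 315 values of single members, moved by 0.213 or more, the SD of log2 differences between OMG and DOG over all probe sets. The floor settings could not move a member, since no ATG8 signal was under the floor. The limit is also wider than the medians against wat in man, zer, OMG and DOG, so a sign could change within it. For example, ATG8D in glc against wat ran from -0.10 to 0.01. With quantile normalization 7 members were lower in glc than in wat in place of 6, and with equal medians 7 were lower in zer. All 9 ATG8 genes were highest in man under each of the 5 settings of floor and scaling. Of these settings, only quantile normalization and equal medians could have changed which array was highest. No ATG8 signal was under the floor, and adding 16 to each signal keeps the order of the arrays. The pathway list median ran from -0.23 to -0.18 in glc against wat and from -0.04 to 0.04 in man. Signal over background could not be judged, as detection calls were not used here.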
